A study of Mus musculus with 26 samples.

Results

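The heat shock proteins and their J-protein partners were read in mouse leg muscle as every gene whose symbol begins with Hspa, Hspb, Hsph, Hsp90, Dnaja, Dnajb or Dnajc, leaving out Hspa9 and Dnaja3. The rule used symbols only and no measured value. It found 68 of the 18193 genes that at least 1 probe set of the array names alone, with 163 probe sets between them. Of the 68, 66 were bright enough to be tested, and Dnajb7 and Dnajc5b were not. Hsp90ab1, the constitutive cytosolic HSP90, had no probe set naming it alone and was not analysed here.

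HSP70 proteins bind unfolded stretches of other proteins in a cycle driven by ATP. J-proteins (DNAJ) deliver the client and start ATP hydrolysis, and nucleotide exchange factors such as the HSP110 proteins reopen the cycle. HSP90 takes over many signalling clients, while the small heat shock proteins hold unfolding proteins without using ATP. In muscle these families keep the densely packed filaments folded, and the heat shock factor HSF1 raises the inducible members when unfolded protein accumulates.

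RNA came from the tibialis anterior and extensor digitorum longus (TA/EDL) of 26 mice, 1 array per mouse. The mice were singly housed littermates of mixed C57/BL6 and 129 background that carried floxed alleles (FLOX) or a skeletal-muscle knockout of PGC-1a (MKO). The control diet, 90% of the intake measured beforehand over at least 10 days, was given to 6 FLOX and 7 MKO mice. Calorie restriction (CR) was given to 6 FLOX and 7 MKO mice, at 80% of that intake for 1 week and at 60%, on chow formulated for 40% restriction, for roughly 11 weeks after it. The labels name neither the promoter of the deleting Cre nor the age or sex of the mice.

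The targeted gene did not fall in the mice labelled MKO. All 5 probe sets for Ppargc1a, which encodes PGC-1a, were higher there on both diets, and on the control diet the brightest read 911 ± 67.3 (SD, n = 6) in FLOX against 1542 ± 372 (SD, n = 7) in MKO, a log2 difference of 0.72 ± 0.11 SE (adjusted p = 2.46e-05). The sources used here do not say where these probes lie relative to the deleted part, so genotypes are used as labelled. All 6 fast fibre markers were bright, with a summed intensity of 163395 to 177774 over the 26 mice. Slow fibre markers varied most among the marker lists, with sums from 2562 to 20709, and their values stand beside the genotype results. In whole muscle, fewer cells of a type and less RNA per cell cannot be told apart.

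CR changed heat shock and J-protein genes in both directions and by little. In FLOX mice 11 of the 66 genes passed an adjusted p of 0.05, 6 higher and 5 lower, where 10.0% of all 14854 genes passed (4.66% higher, 5.37% lower). In MKO mice 18 passed, 8 higher and 10 lower, against 15.1% of all genes (6.64% higher, 8.48% lower). The median log2 change of the 66 genes was -0.02 in FLOX and 0.02 in MKO, and that of all genes was 0.00 and 0.00. Between genotypes, 14 of the 66 differed on the control diet, 5 higher and 9 lower in MKO, against 19.3% of all genes (9.05% higher, 10.2% lower). On CR 21 differed, 12 higher and 9 lower, against 17.3% of all genes (8.23% higher, 9.05% lower). The medians were 0.04 and 0.05, against -0.02 and -0.02 for all genes. Genes were tested with limma, adjusted by Benjamini-Hochberg over all 14854 genes, and the adjusted p-values below come from that fit unless another setting is named. Each genotype comparison shares its groups with the diet comparisons, so the 4 sets of calls are not independent.

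**Figure D1:**
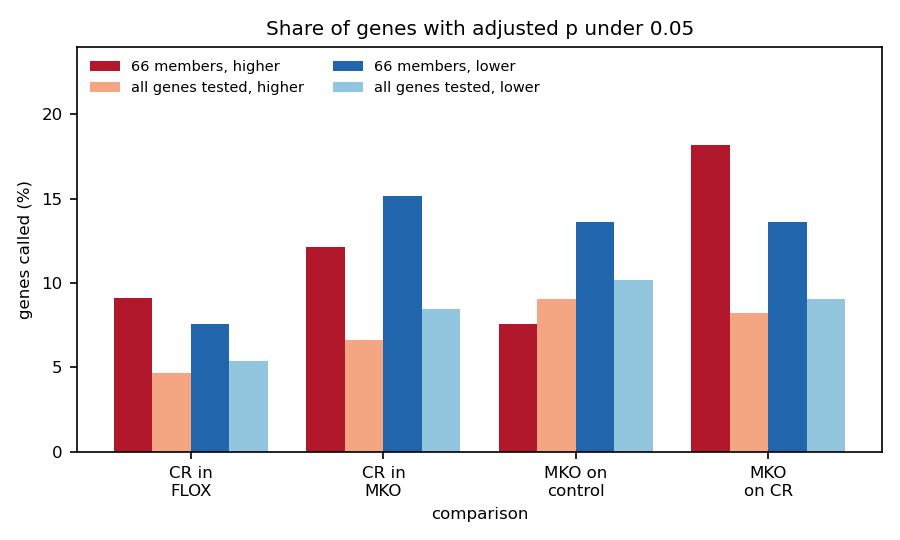
Percent of genes with an adjusted p under 0.05 (y axis) in each of the 4 comparisons (x axis), split into higher and lower, for the 66 heat shock and J-protein genes (dark bars) and for all 14854 genes tested (pale bars). The dark bars are above the pale ones in every pair except genes higher in MKO on the control diet, where 5 of 66 passed against 9.05% of all genes.

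No change was large. The largest difference of any of the 66 genes in the 4 comparisons was 1.60-fold, for Hspa1l between genotypes on CR. In all, 33 genes passed in at least 1 comparison and 33 in none. In the diet comparisons 20 passed, 9 of them in both genotypes and each of these 9 in the same direction. In the genotype comparisons 25 passed, 10 of them on both diets, all 10 in the same direction. The matching counts over all genes were not made, so these counts describe the 66 genes only.

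**Figure D2:**
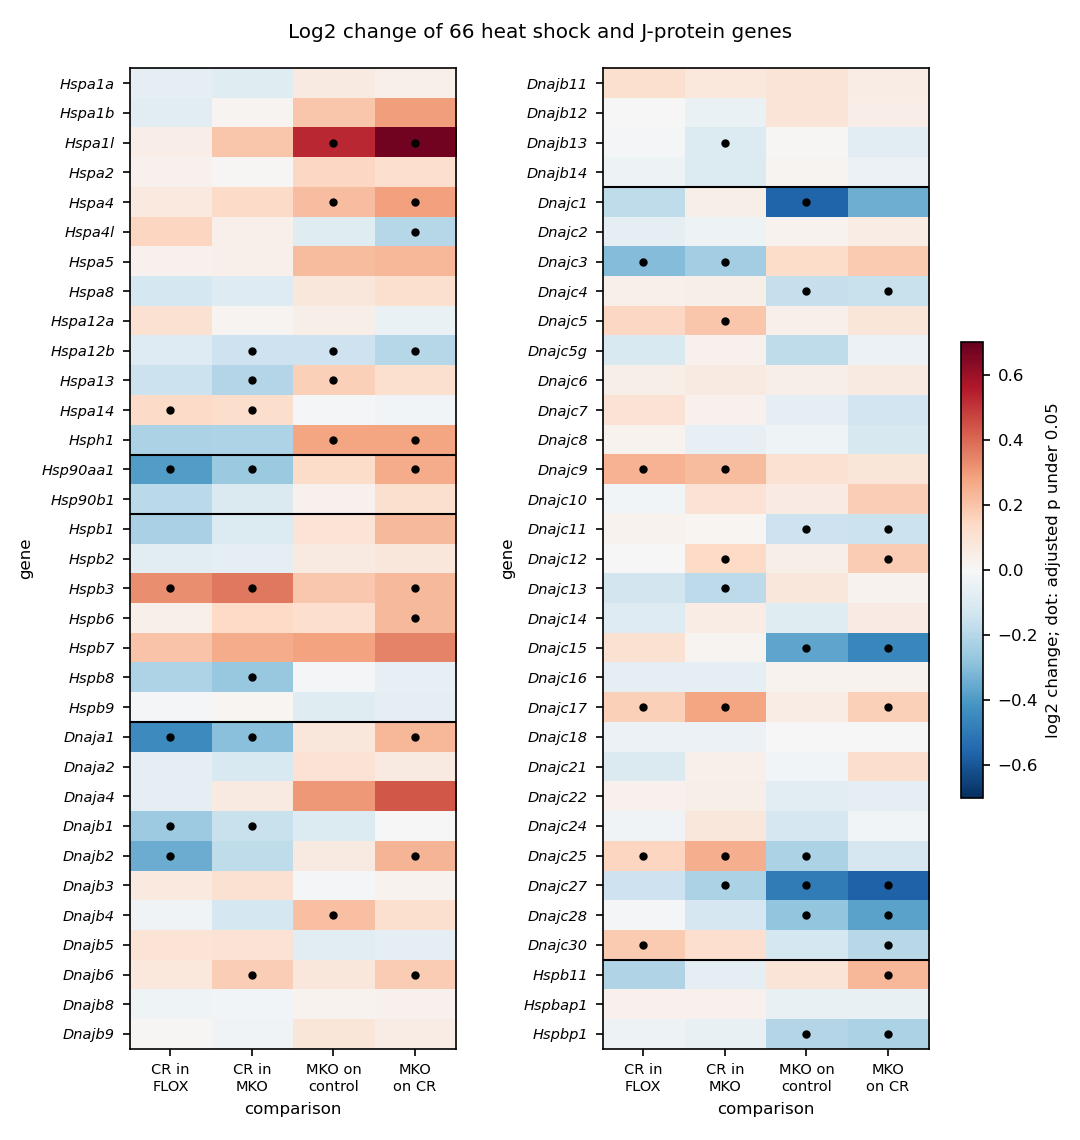
Log2 change of each of the 66 genes (rows, grouped by family with black lines between families) in the 4 comparisons (columns); red is higher and blue lower in CR or in MKO, and a dot marks an adjusted p under 0.05. The darkest cells are Hspa1l, higher in MKO by 0.53 and 0.68, and Dnajc1, Dnajc27 and Dnajc15, lower in MKO.

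Among the genes that heat is known to induce through HSF1, the J-proteins Dnaja1 and Dnajb1 and the inducible HSP90 Hsp90aa1 fell under CR in both genotypes. Of the 8 tested genes of this list, 3 fell and 0 rose in FLOX, and the same 3 fell and 0 rose in MKO, where 5.37% and 8.48% of all genes fell. The median log2 change of the 8 was -0.22 in FLOX, with 8 of 8 values negative, and -0.13 in MKO, with 7 of 8 negative.

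Dnaja1 encodes a class A J-protein that serves HSP70 in the cytosol, and it fell the most. Its intensity was 1187 to 1369 (median 1282) in control-diet FLOX mice and 879.9 to 1071 (median 912) in CR FLOX mice. In MKO mice it was 1159 to 1617 (median 1365) on the control diet and 1029.7 to 1149 (median 1108) on CR. Every CR mouse was below every control-diet mouse of its genotype. The log2 change was -0.45 ± 0.06 SE (adjusted p = 3.4e-05) in FLOX, a 1.36-fold fall, and -0.29 ± 0.06 SE (adjusted p = 0.000692) in MKO, a 1.23-fold fall. All 3 of its probe sets fell in FLOX and 2 of the 3 in MKO. On CR it was higher in MKO than in FLOX, by 0.23 ± 0.06 SE (adjusted p = 0.0055), and the 2 diet effects differed by 0.15 ± 0.08 SE (adjusted p = 0.999), which did not pass.

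Hsp90aa1 showed the same order of groups. Intensities were 1868 to 2405 (median 2105) in control-diet FLOX and 1525 to 1703 (median 1632) in CR FLOX mice. They were 1988 to 2625 (median 2249) in control-diet MKO and 1786 to 2114 (median 1945) in CR MKO mice. In FLOX the diets did not overlap, and in MKO 5 of 7 CR mice lay below all control-diet mice. The log2 changes were -0.39 ± 0.07 SE (adjusted p = 0.00034) and -0.26 ± 0.06 SE (adjusted p = 0.00436), with 3 of 5 probe sets falling in each genotype. On CR, all 7 MKO mice were above all 6 FLOX mice (0.26 ± 0.06 SE, adjusted p = 0.00494).

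Dnajb1, the J-protein first called HSP40, fell less. It ranged over 472 to 531 (median 486) in control-diet FLOX and 375 to 446 (median 411) in CR FLOX mice, without overlap. In MKO mice it ranged over 423 to 516 (median 457) and 384 to 435 (median 413), with overlap. The log2 changes were -0.25 ± 0.05 SE (adjusted p = 0.000805) in FLOX and -0.16 ± 0.04 SE (adjusted p = 0.0124) in MKO, and the second was lost (adjusted p = 0.132) when its probe sets were averaged.

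The other 5 heat-inducible genes did not pass under CR. The list, drawn from textbook HSF1 targets, also holds Hspa8, the constitutive HSP70 of the cytosol. On its brightest probe set Hspa8 had a log2 difference of -0.12 ± 0.06 SE (adjusted p = 0.2) in FLOX and -0.09 ± 0.05 SE (adjusted p = 0.277) in MKO. Of its 3 probe sets that could be tested, 2 fell in each genotype, by up to 0.28 and 0.19 on the log2 scale. Hsph1, the HSP110 exchange factor, differed between diets by -0.22 ± 0.09 SE (adjusted p = 0.129) and -0.22 ± 0.08 SE (adjusted p = 0.0785), and Hspb1, the small heat shock protein HSP25, by -0.23 ± 0.10 SE (adjusted p = 0.153) and -0.10 ± 0.09 SE (adjusted p = 0.544). The stress-inducible HSP70 genes are a near-identical pair whose probes may read both copies. The log2 difference of Hspa1a was -0.06 and -0.08 (adjusted p = 0.672 and 0.432), and that of Hspa1b -0.08 and 0.02 (adjusted p = 0.779 and 0.95).

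**Figure D3:**
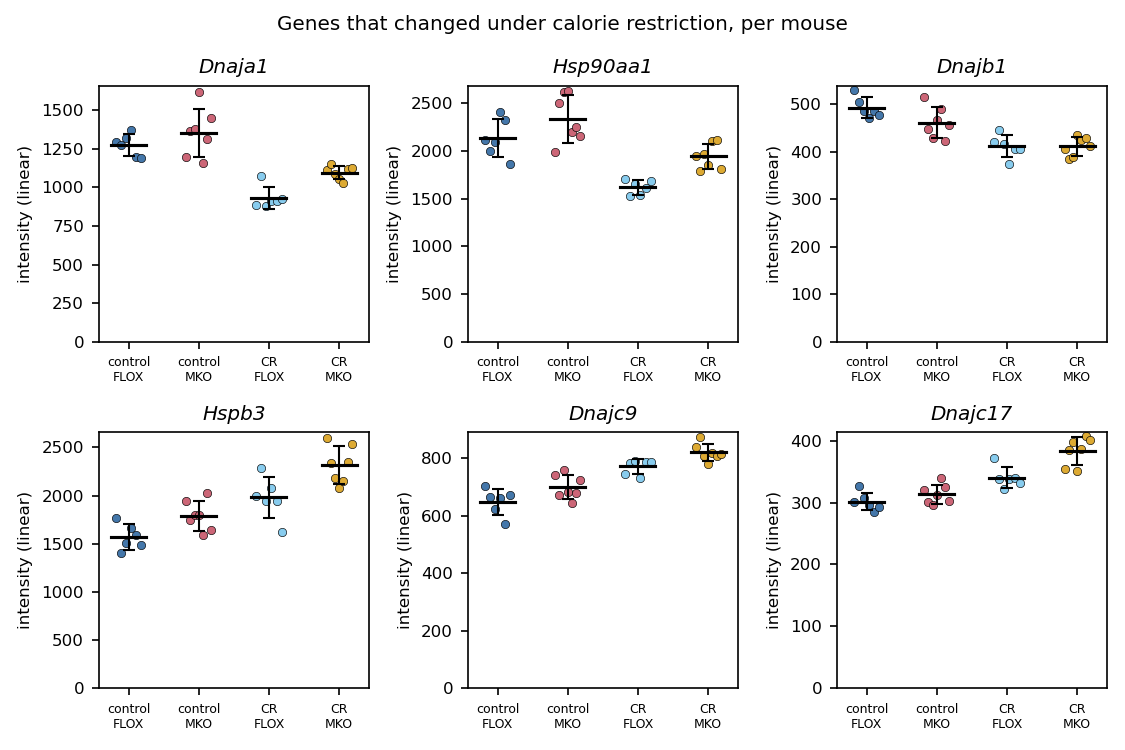
Intensity (linear y axis from 0, 1 point per mouse) of 6 genes in the 4 groups (control is the control diet), with the mean as a line and the SD as a bar. Dnaja1, Hsp90aa1 and Dnajb1 were lower on CR, and Hspb3, Dnajc9 and Dnajc17 were higher, with no overlap between diets in FLOX for Dnaja1, Hsp90aa1, Dnajb1 and Dnajc9 and in MKO for Dnaja1, Hspb3, Dnajc9 and Dnajc17.

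HSF1 binds inverted repeats of the bases GAA. The form searched here is GAANNTTC, which reads the same on both strands. The opposite order, TTCNNGAA, was not searched alone, so the counts below leave it out. RefSeq promoters (build GRCm38.p6) were found for 56 of the 68 genes, as 72 windows of 250 bases before the start. Hsp90aa1 and Hspa8 are among the 12 genes without one and were not searched. The element was in 10 of the 72 windows (13.89%), which belong to 9 genes, and in 6.694% of all 32851 promoters. Counted by gene, that is 16.07% of the 56 and 7.726% of all 27025 genes with a promoter. Of the genes that fell under CR in at least 1 genotype, 9 had a promoter and 2 of these held it, Dnaja1 and Dnajc27. Of those that rose, 6 had one and 2 held it, Hspb3 and Dnajb6. The windows shown are those of some genes that moved, without Dnajc27. Dnaja1 fell (chr4:40722218-40722467, plus strand), and Hspb3 rose in both genotypes (chr13:113663677-113663926, minus strand). Dnajb6 rose in MKO on its brightest probe set (chr5:29735729-29735978, plus strand). The mean of its probe sets did not pass (0.01, adjusted p = 0.848). Hspa1a is shown as a strongly inducible gene that did not pass in any comparison (chr17:34972157-34972406, minus strand). Capitals mark the element and, in Dnajb6, its longer form with an added GAA or TTC unit in the same spacing.
Dnaja1: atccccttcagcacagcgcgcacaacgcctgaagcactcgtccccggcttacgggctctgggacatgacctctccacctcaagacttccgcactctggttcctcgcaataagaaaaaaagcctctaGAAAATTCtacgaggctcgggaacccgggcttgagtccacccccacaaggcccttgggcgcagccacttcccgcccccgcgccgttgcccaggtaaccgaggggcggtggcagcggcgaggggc
Hspa1a: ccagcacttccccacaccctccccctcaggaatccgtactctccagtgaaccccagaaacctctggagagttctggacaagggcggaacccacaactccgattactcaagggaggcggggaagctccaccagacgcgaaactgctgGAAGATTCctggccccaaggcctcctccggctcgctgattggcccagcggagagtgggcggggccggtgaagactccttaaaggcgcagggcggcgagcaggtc
Dnajb6: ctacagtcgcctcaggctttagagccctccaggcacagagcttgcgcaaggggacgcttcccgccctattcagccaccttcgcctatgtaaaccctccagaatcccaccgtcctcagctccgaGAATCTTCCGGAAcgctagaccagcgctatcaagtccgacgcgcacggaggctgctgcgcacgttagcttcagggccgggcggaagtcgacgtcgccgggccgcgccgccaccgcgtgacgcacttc
Hspb3: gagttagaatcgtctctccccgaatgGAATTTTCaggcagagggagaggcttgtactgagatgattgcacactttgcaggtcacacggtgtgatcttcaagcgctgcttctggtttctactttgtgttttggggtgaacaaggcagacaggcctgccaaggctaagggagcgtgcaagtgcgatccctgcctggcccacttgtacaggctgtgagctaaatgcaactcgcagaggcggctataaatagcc
The Dnaja1 element lies 124 to 117 bases before the start, and that of Hspa1a 104 to 97 bases before it. Hspa1b held it at the same place, and its window differed from that of Hspa1a at 3 of 250 bases. The Dnajb6 match lies 127 to 115 bases before this start, and the Hspb3 element 224 to 217 bases before its start. The longer form, searched on both strands, was in 0.4657% of all promoters and, among these genes, only in the overlapping windows of Dnajb6. These matches describe letters in a window and were not tested against the changes.

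Dnajb2 and Dnajc3 were the other J-protein genes that fell in FLOX mice. Dnajb2, a class B J-protein of the cytosol that binds ubiquitin chains, ranged over 1028 to 1113 (median 1091) on the control diet and 756 to 949.9 (median 861) on CR in FLOX. In MKO the ranges were 1003 to 1394 (median 1105) and 889.8 to 1126 (median 971). The diets did not overlap in FLOX and did in MKO, with log2 changes of -0.35 ± 0.07 SE (adjusted p = 0.0012) and -0.18 ± 0.06 SE (adjusted p = 0.0554). On CR it was higher in MKO by 0.24 ± 0.06 SE (adjusted p = 0.0105).

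Dnajc3 encodes p58IPK, a J-protein of the endoplasmic reticulum (ER). Intensities were 853 to 1053 (median 985) and 686 to 856 (median 783) in FLOX on the control diet and on CR, and 883 to 1217 (median 1043) and 783 to 1041 (median 879) in MKO. Most CR mice were below all control-diet mice of their genotype, 5 of 6 in FLOX and 4 of 7 in MKO. The log2 changes were -0.30 ± 0.07 SE (adjusted p = 0.00648) and -0.25 ± 0.07 SE (adjusted p = 0.0113), with 4 of 5 probe sets falling in each genotype. Without the 3 mice of highest slow fibre score, a choice made after seeing the data, the MKO fall did not pass (adjusted p = 0.0613).

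Of the 10 ER members, Dnajc3 was the only 1 that fell in FLOX, and Dnajc3 and Hspa13, an HSP70 relative of the ER, fell in MKO. Of these 10 genes 0 rose in either genotype. Among all genes 5.37% fell in FLOX and 8.48% in MKO. The counts of 1 and 2 of 10 are near the shares of all genes that passed in either direction, 10.0% and 15.1%. The ER HSP70 Hspa5 (BiP) had a log2 difference under CR of 0.03 ± 0.10 SE (adjusted p = 0.913) in FLOX and 0.03 ± 0.09 SE (adjusted p = 0.857) in MKO. The ER HSP90 Hsp90b1 (GRP94) had differences of -0.19 ± 0.06 SE (adjusted p = 0.0638) and -0.10 ± 0.06 SE (adjusted p = 0.285). The ER stress element, bound by the unfolded protein factors ATF6 and XBP1 with NF-Y, was searched on both strands. It was in 0.1126% of all promoters and in 3 of the 72 windows, those of these 3 genes. The window of Dnajc3, which fell (chr14:118937682-118937931, plus strand), and that of Hspa5, which did not pass (chr2:34771840-34772089, plus strand), are shown with the element in capitals.
Dnajc3: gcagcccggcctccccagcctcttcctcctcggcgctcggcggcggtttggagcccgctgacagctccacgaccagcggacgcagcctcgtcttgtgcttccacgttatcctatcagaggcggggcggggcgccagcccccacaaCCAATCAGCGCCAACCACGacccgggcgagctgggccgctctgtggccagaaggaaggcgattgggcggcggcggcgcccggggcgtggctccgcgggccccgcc
Hspa5: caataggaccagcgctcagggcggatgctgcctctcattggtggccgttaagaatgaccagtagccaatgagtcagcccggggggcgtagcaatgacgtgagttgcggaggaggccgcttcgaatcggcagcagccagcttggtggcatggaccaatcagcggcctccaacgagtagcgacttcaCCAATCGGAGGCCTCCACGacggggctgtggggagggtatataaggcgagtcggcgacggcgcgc
It lies 105 to 87 bases before the Dnajc3 start and 65 to 47 bases before the Hspa5 start, and the Hsp90b1 window held it at 2 places. Of these 3 genes, 1 passed under CR.

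Under CR, Hspb3, Dnajc9, Dnajc17, Dnajc25 and Hspa14 rose in both genotypes. Hspb3 is a muscle small heat shock protein that forms complexes with Hspb2. It ranged over 1404 to 1771 (median 1549.8) on the control diet and 1627 to 2281 (median 1973) on CR in FLOX mice. In MKO mice it ranged over 1587 to 2030.2 (median 1796) and 2078 to 2595 (median 2338), and every CR mouse was above every control-diet mouse. The rises were 0.33 ± 0.07 SE (adjusted p = 0.00383) and 0.37 ± 0.07 SE (adjusted p = 0.000391). Its partner Hspb2 had values of -0.08 and -0.06, which did not pass (adjusted p = 0.653 and 0.666).

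Dnajc9, a J-protein that handles histones in the nucleus, was 571 to 703 (median 662) on the control diet and 732 to 790.3 (median 785) on CR in FLOX. In MKO it was 644 to 760.2 (median 684) and 778 to 874 (median 814). No CR mouse overlapped the control-diet mice of its genotype, and the rises were 0.25 ± 0.04 SE (adjusted p = 0.000663) and 0.22 ± 0.04 SE (adjusted p = 0.00046).

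Dnajc17, a nuclear J-protein with a link to splicing, was 285 to 326 (median 298) and 322 to 371 (median 337) in FLOX on the control diet and on CR. In MKO it was 295 to 339 (median 311) and 351 to 407 (median 387), without overlap. Its rise was 0.16 ± 0.04 SE (adjusted p = 0.0132) in FLOX and 0.28 ± 0.04 SE (adjusted p = 2.87e-05) in MKO, and on CR it was higher in MKO by 0.17 ± 0.04 SE (adjusted p = 0.00524).

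Dnajc25 rose under CR and was lower in MKO on the control diet. It was 413 to 498 (median 459) in control-diet FLOX and 461 to 552 (median 520.0) in CR FLOX mice. It was 379.6 to 407 (median 382) in control-diet MKO and 443 to 507 (median 463) in CR MKO mice. The rise was 0.26 ± 0.04 SE (adjusted p = 0.00021) in MKO, where the diets did not overlap, and 0.15 ± 0.05 SE (adjusted p = 0.0393) in FLOX, where they did. The FLOX call was lost without FLOX control animal 1, 3 or 4 or restricted FLOX animal 1, 2, 5 or 6 (adjusted p 0.0639 to 0.107), each left out alone. On the control diet every MKO mouse lay below every FLOX mouse (-0.22 ± 0.05 SE, adjusted p = 0.000989). On CR the genotypes overlapped, and their difference did not pass.

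Smaller diet changes passed in 1 genotype or near the threshold. Hspa14, the HSP70 of the ribosome-associated complex, rose by 0.14 ± 0.04 SE (adjusted p = 0.0321) in FLOX and 0.12 ± 0.04 SE (adjusted p = 0.0248) in MKO. These calls were lost without FLOX control animal 2, 3 or 5 or restricted FLOX animal 2, 5 or 6 (adjusted p 0.0554 to 0.0803) in FLOX and without MKO control animal 1 or 6 or restricted MKO animal 1 or 7 (adjusted p 0.0502 to 0.0668) in MKO. Dnajc30, a mitochondrial J-protein, rose in FLOX by 0.19 ± 0.05 SE (adjusted p = 0.0246), which was lost without FLOX control animal 2, 4 or 5 or restricted FLOX animal 1 (adjusted p 0.0522 to 0.0647). In MKO, Dnajc5, the cysteine string protein of secretory vesicles, rose by 0.19 ± 0.05 SE (adjusted p = 0.0137). Dnajc13, which acts on endosomes, fell there (-0.18 ± 0.05 SE, adjusted p = 0.0121), as did Hspa13 (-0.20 ± 0.05 SE, adjusted p = 0.0113). None of these diet effects was shown to differ between genotypes.

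Dnajb6 and Hspb8 are chaperones whose mutations cause muscle disease. Dnajb6 rose under CR in MKO by 0.17 ± 0.05 SE (adjusted p = 0.0104) on its brightest probe set. Its 4 probe sets went against each other there, with 2 rising and 1 falling, and their mean gave 0.01 (adjusted p = 0.848). Hspb8, the partner of Bag3, fell in MKO, with a log2 change of -0.26 ± 0.09 SE (adjusted p = 0.0389) against a value of -0.22 ± 0.09 SE (adjusted p = 0.155) in FLOX, which did not pass. The MKO call was lost without MKO control animal 1, 2 or 7 or restricted MKO animal 2, 3, 4 or 7 (adjusted p 0.0502 to 0.102). Dnajb13, known from cilia and sperm, fell in MKO (-0.10 ± 0.03 SE, adjusted p = 0.0461), and the call was lost without FLOX control animal 1, 3, 5 or 6 or MKO control animal 1, 2, 4 or 5 or restricted FLOX animal 3 or restricted MKO animal 2, 3, 4, 6 or 7 (adjusted p 0.0511 to 0.109). Dnajc12, a J-protein of amino acid hydroxylases, rose in MKO by 0.14 ± 0.04 SE (adjusted p = 0.0285), and the call was lost without MKO control animal 2 or 7 or restricted MKO animal 3, 4 or 7 (adjusted p 0.0528 to 0.0747).

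Markers of other cells moved with the diet. Of 10 fibroblast and tendon markers, 8 fell in FLOX and 8 in MKO, and their summed intensity was 18109 to 27763 in control-diet FLOX, 12290 to 16540 in CR FLOX, 18441 to 25389 in control-diet MKO and 9467 to 17217 in CR MKO mice. Of 10 macrophage and leukocyte markers, 4 and 3 fell, with sums of 6603 to 8751, 4682 to 6834, 5617 to 9524 and 4732 to 5917 in the same order. Among all genes 5.37% fell in FLOX and 8.48% in MKO. All 20 of these markers were above the filter on dim genes in mean. Their part in the diet changes of the chaperone genes was not tested. Of 13 clock genes, 3 rose in FLOX (Per2, Cry1, Cry2), and in MKO 2 rose (Per2, Cry2) and 1 fell (Arntl). Among all genes 4.66% rose in FLOX and 6.64% in MKO. The 13 values went both ways, 5 positive and 8 negative in FLOX and 8 positive and 5 negative in MKO. The sources used here do not give the hour of tissue collection.

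Between genotypes, the mitochondrial J-protein genes were lower in MKO. All 4 tested members, Dnajc11, Dnajc15, Dnajc28 and Dnajc30, were below FLOX on both diets, 3 passing on the control diet and 4 on CR where 10.2% and 9.05% of all genes were lower, with medians of -0.21 and -0.29. The median over all genes was -0.02 and -0.02. The mitochondrial chaperones Hspd1 (HSP60) and Trap1, outside the rule, were lower too, with differences of -0.12 and -0.12 on the control diet and -0.15 and -0.12 on CR. The adjusted p-values were 0.0496 and 0.00596 on the control diet and 0.015 and 0.00741 on CR. The Hspd1 call on the control diet was lost without 21 of the 26 mice, each left out alone: FLOX control animal 1, 2, 3, 4, 5 or 6 or MKO control animal 1, 2, 5, 6 or 7 or restricted FLOX animal 1, 3, 4, 5 or 6 or restricted MKO animal 1, 2, 4, 6 or 7 (adjusted p 0.0511 to 0.121). Hspe1, the third of this list, had differences of -0.05 and -0.02, which did not pass.

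Dnajc15 encodes MCJ, a J-protein of the inner mitochondrial membrane. It was 2168 to 2477 (median 2289.7) in FLOX and 1565 to 1897 (median 1808) in MKO on the control diet. On CR it was 2267 to 2640.2 (median 2527) and 1649 to 1948 (median 1798). No MKO mouse overlapped the FLOX mice on its diet. The differences were -0.37 ± 0.05 SE (adjusted p = 2.87e-06) and -0.46 ± 0.05 SE (adjusted p = 5.77e-08), which is 1.29-fold and 1.37-fold lower.

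Dnajc28 was 1072 to 1262 (median 1129) in FLOX and 841 to 1047 (median 917) in MKO on the control diet, and 1024 to 1204 (median 1135) and 809 to 978 (median 835) on CR. The genotypes did not overlap on either diet, with differences of -0.27 ± 0.06 SE (adjusted p = 0.00128) and -0.38 ± 0.06 SE (adjusted p = 2.94e-05). Dnajc11, which is tied to the cristae-forming complex, was lower, with differences of -0.14 ± 0.04 SE (adjusted p = 0.0189) and -0.15 ± 0.04 SE (adjusted p = 0.0153). Its first call was lost without FLOX control animal 5 or 6 (adjusted p 0.0566 to 0.0607). Dnajc30 was lower on CR (-0.20 ± 0.05 SE, adjusted p = 0.00775), and its value on the control diet, -0.13 ± 0.05 SE (adjusted p = 0.0874), did not pass.

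Dnajc27 is an unusual member, a small GTPase of the RAB type with a J domain. It was 1535 to 1702 (median 1602) in FLOX and 1001 to 1557 (median 1123) in MKO on the control diet, where 6 of 7 MKO mice were below all FLOX mice and MKO mouse 3 was not. On CR it was 1249 to 1646 (median 1469) and 901 to 1097 (median 953), without overlap. The differences were -0.49 ± 0.08 SE (adjusted p = 5.28e-05) and -0.57 ± 0.08 SE (adjusted p = 5.19e-06). Under CR it fell in MKO (-0.22 ± 0.07 SE, adjusted p = 0.0411), a call lost without MKO control animal 1, 2, 3 or 4 or restricted MKO animal 1, 3, 5, 6 or 7 (adjusted p 0.0508 to 0.0877).

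Dnajc4 was lower in MKO, with differences of -0.16 ± 0.04 SE (adjusted p = 0.00633) on the control diet and -0.16 ± 0.04 SE (adjusted p = 0.00795) on CR. Dnajc1, an ER J-protein, was lower on the control diet (-0.56 ± 0.19 SE, adjusted p = 0.0385) on its brightest probe set. Another of its probe sets was higher by 0.16 (adjusted p = 0.0312 over all probe sets). The call of the brightest probe set was lost without FLOX control animal 2, 3, 4 or 6 or MKO control animal 3, 4 or 7 (adjusted p 0.0562 to 0.0918). In all, 7 of the 26 class C J-protein genes were lower and 0 higher in MKO on the control diet, and 6 were lower and 2 higher on CR. Among all genes 10.2% were lower and 9.05% higher on the control diet, and 9.05% lower and 8.23% higher on CR.

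Within the HSP70 and HSP110 family, 4 of 13 genes were higher and 1 lower in MKO on the control diet, and 3 were higher and 2 lower on CR. Among all genes 9.05% were higher and 10.2% lower, then 8.23% and 9.05%. With the probe sets of each gene averaged, 1 of the 13 was higher and 2 lower on the control diet, and 3 and 3 on CR. Over all genes 2759 and 2584 passed in that setting. Hspa1l, an HSP70 best known from testis whose gene lies beside Hspa1a and Hspa1b, differed the most. It was 388 to 533 (median 446) in FLOX and 541 to 874 (median 603) in MKO on the control diet. On CR it was 368 to 504 (median 479) and 631 to 806 (median 748). Every MKO mouse was above every FLOX mouse on its diet, by 0.53 ± 0.10 SE (adjusted p = 0.000336) and 0.68 ± 0.10 SE (adjusted p = 1.19e-05). It has 1 probe set, and whether that reads RNA of the neighbouring HSP70 genes was not tested. Hspa1b, with 3 probe sets, had differences of 0.19 and 0.29, which did not pass (adjusted p = 0.288 and 0.104).

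Hsph1 was 1121 to 1318 (median 1224) in FLOX and 1267 to 1754 (median 1433) in MKO on the control diet, and 833 to 1168 (median 1094) and 1032 to 1536 (median 1297) on CR. The ranges overlapped, with 6 of 7 and 5 of 7 MKO mice above all FLOX mice. The differences were 0.28 ± 0.09 SE (adjusted p = 0.0249) and 0.28 ± 0.09 SE (adjusted p = 0.0259). They were lost without FLOX control animal 1, 2 or 5 or MKO control animal 2 or 4 (adjusted p 0.0534 to 0.0623) on the control diet and without restricted FLOX animal 2 or 4 or restricted MKO animal 5 or 6 (adjusted p 0.0558 to 0.0919) on CR.

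Hspa4, another HSP110 relative, was higher in MKO by 0.22 ± 0.06 SE (adjusted p = 0.00579) on the control diet and 0.28 ± 0.06 SE (adjusted p = 0.000471) on CR. The mean of its 4 probe sets did not pass (0.06 and 0.05, adjusted p = 0.253 and 0.398). Under CR its brightest probe set had values of 0.07 and 0.13 that did not pass, whereas another fell in both genotypes, with -0.28 and -0.40. Hspa4l, the third of this subfamily, was lower in MKO on CR (-0.20 ± 0.05 SE, adjusted p = 0.00498).

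Hspbp1, an exchange factor of cytosolic HSP70 unrelated to HSP110, was lower in MKO. It was 497 to 548 (median 529) in FLOX and 369 to 513 (median 469) in MKO on the control diet, and 494 to 539.6 (median 514) and 405 to 479 (median 437) on CR. On CR the genotypes did not overlap, and on the control diet 6 of 7 MKO mice were below all FLOX mice. The differences were -0.21 ± 0.05 SE (adjusted p = 0.00414) and -0.22 ± 0.05 SE (adjusted p = 0.00213).

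**Figure D4:**
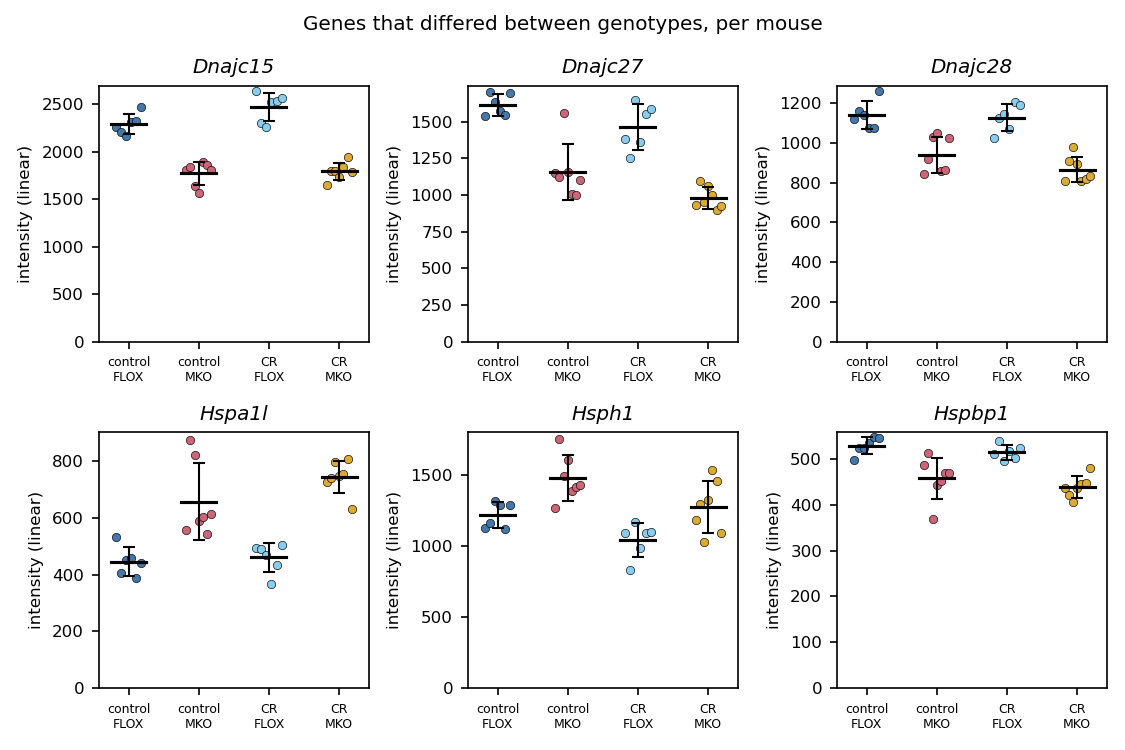
Intensity (linear y axis from 0, 1 point per mouse) of 6 genes in the 4 groups (control is the control diet), with the mean as a line and the SD as a bar. Dnajc15, Dnajc28 and Hspa1l did not overlap between genotypes on either diet, and 1 control-diet MKO mouse stood at 1557 for Dnajc27, above the others of its group.

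Hspa12b is a distant HSP70 relative found in endothelial cells. It was lower in MKO, with differences of -0.15 ± 0.05 SE (adjusted p = 0.0382) on the control diet and -0.20 ± 0.05 SE (adjusted p = 0.00527) on CR. Under CR it fell in MKO (-0.14 ± 0.05 SE, adjusted p = 0.0424). The control-diet call was lost without FLOX control animal 2, 5 or 6 or MKO control animal 1, 3, 4, 5 or 6 (adjusted p 0.0502 to 0.127), and the diet call without MKO control animal 2, 4, 5, 6 or 7 or restricted MKO animal 1, 2, 4, 5, 6 or 7 (adjusted p 0.0546 to 0.105). Of 10 endothelial markers, 2 were lower in MKO on the control diet and 3 on CR, where 10.2% and 9.05% of all genes were lower. After quantile normalization or median centring 1 was lower on CR. Under CR 2 fell in FLOX and 5 in MKO, where 5.37% and 8.48% of all genes fell. The summed intensity of the 10 markers was 8122 to 9338 in control-diet FLOX, 7561 to 9135 in control-diet MKO, 7860 to 8373 in CR FLOX and 6668 to 8097 in CR MKO mice. All 10 were above the filter on dim genes in mean, and their part in the Hspa12b result was not tested.

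Hspa13 was higher in MKO on the control diet by 0.17 ± 0.06 SE (adjusted p = 0.0393), which was lost without FLOX control animal 2, 4 or 6 or MKO control animal 2, 3, 4 or 6 (adjusted p 0.055 to 0.133). Dnajb4, a cytosolic class B J-protein, was higher there by 0.21 ± 0.07 SE (adjusted p = 0.0258), which was lost without FLOX control animal 2 or MKO control animal 3 or 7 (adjusted p 0.0626 to 0.0889). Hspa5 had differences of 0.22 ± 0.09 SE (adjusted p = 0.0946) and 0.23 ± 0.09 SE (adjusted p = 0.0914), which did not pass, although 1 of its 3 probe sets passed on the control diet.

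Of 7 small heat shock protein genes, 2 were higher and 0 lower in MKO on CR, where 8.23% of all genes were higher and 9.05% lower, and none passed on the control diet. Hspb6 (HSP20), a small heat shock protein abundant in muscle, was 12547 to 15329.5 (median 14900.5) in CR FLOX and 15289 to 18061 (median 16969.6) in CR MKO mice, with 6 of 7 MKO mice above all FLOX mice. The difference was 0.23 ± 0.06 SE (adjusted p = 0.00834) on CR and 0.12 ± 0.06 SE (adjusted p = 0.167) on the control diet. Hspb3 was higher in MKO on CR by 0.23 ± 0.07 SE (adjusted p = 0.0227), lost without restricted FLOX animal 6 or restricted MKO animal 1 (adjusted p 0.05003 to 0.0752). Hspb7 was 4665 to 9233 (median 7506) and 6015 to 13579.9 (median 8125) on the control diet and 4205 to 9850.5 (median 8896) and 8231 to 11627 (median 10360.2) on CR. Its spread was wide, and the differences of 0.28 ± 0.19 SE (adjusted p = 0.337) and 0.34 ± 0.19 SE (adjusted p = 0.248) did not pass.

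Further genes were higher in MKO on CR. Dnajb6 differed by 0.18 ± 0.05 SE (adjusted p = 0.0076) on its brightest probe set, and the mean of its probe sets by 0.01 (adjusted p = 0.908). Dnajc12 differed by 0.18 ± 0.05 SE (adjusted p = 0.00635), and all 7 MKO mice were above all 6 FLOX mice. Hspb11, which carries a heat shock name but is a protein of cilia, differed by 0.23 ± 0.08 SE (adjusted p = 0.0444), lost without FLOX control animal 2 or restricted FLOX animal 1, 2, 3 or 4 or restricted MKO animal 3, 4, 5, 6 or 7 (adjusted p 0.0506 to 0.133). Of the 8 tested genes of the heat-inducible list, 3 were higher and 0 lower there (Dnaja1, Hsp90aa1, Hsph1), with a median of 0.23. On the control diet 1 was higher and 0 lower, with a median of 0.09. Among all genes 8.23% were higher on CR and 9.05% on the control diet, with medians of -0.02 and -0.02.

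Slow fibre markers had a median log2 difference between MKO and FLOX of 0.60 on the control diet and 0.57 on CR, with 6 of 6 positive on each and 1 passing on each (Myl3, then Myl2). Their summed intensity was 2562 to 9850 in control-diet FLOX, 6544 to 11324 in control-diet MKO, 4011 to 7558 in CR FLOX and 7554 to 20709 in CR MKO mice. With the slow fibre score as a covariate, 10 of the 66 chaperone genes passed between genotypes on the control diet in place of 14, and 19 on CR in place of 21. Over all genes the counts went down as well, to 2322 from 2865 and to 1920 from 2567. The calls lost with this covariate were Dnajb4, Dnajc1, Hspa12b and Hspa13 on the control diet (adjusted p = 0.0604, 0.0774, 0.103 and 0.113) and Hspb3 and Hspb11 on CR (0.116 and 0.151). Without the 3 mice of highest slow fibre score, chosen after seeing the data, 10 genes passed under CR in FLOX, 12 under CR in MKO, 10 between genotypes on the control diet and 20 on CR. Over all genes 1246, 1552, 2360 and 2251 passed in the same order.

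Groups that do not overlap gave a second count. Under CR, 5 of the 66 genes had no overlap between diets in FLOX and 5 in MKO, where 5.4% and 3.48% of all genes had none. Between genotypes 5 had none on the control diet and 8 on CR, against 6.64% and 7.72% of all genes.

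Whether the diet acted differently in the 2 genotypes was tested directly. By limma 0 of the 66 genes passed, where 0.0% of all genes did, and 1 of the 66 and 720 of all genes had an unadjusted p under 0.05. The 1 was Dnajc12, with a difference of diet effects of 0.13 ± 0.06 SE (adjusted p = 0.999). For Dnajc14, among the 5 genes of smallest p here, it was 0.14 ± 0.08 SE (adjusted p = 0.999). No difference of diet effects among the 66 was over 0.22 in size on the log2 scale. For Dnajb2, which passed in FLOX and not in MKO, it was 0.17 ± 0.09 SE (adjusted p = 0.999), and for Hsp90aa1 0.13 ± 0.09 SE (adjusted p = 0.999). A p that misses the threshold does not show that the effects were alike.

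Averaged over genotypes, 24 of the 66 genes changed with diet, 10 higher and 14 lower, where 23.8% of all genes passed (11.2% higher, 12.6% lower). Hsp90b1 (-0.14 ± 0.04 SE, adjusted p = 0.0163) and Hsph1 (-0.22 ± 0.06 SE, adjusted p = 0.00922) fell in this average. Averaged over diets, 34 differed between genotypes, 21 higher and 13 lower, against 33.0% of all genes (14.9% higher, 18.1% lower). Hspa5 was higher in MKO in this average by 0.23 ± 0.07 SE (adjusted p = 0.00914). Dnaja2, a class A J-protein of the cytosol, passed in both averages with probe sets that went against each other. Its brightest fell with CR (-0.09 ± 0.03 SE, adjusted p = 0.0312) and was higher in MKO (0.08 ± 0.03 SE, adjusted p = 0.0304), while another gave 0.15 and -0.13 (adjusted p = 0.00523 and 0.00819 over all probe sets).

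Other chaperone genes outside the rule were counted from lists. Most genes of the cytosolic chaperonin TRiC, which folds actin and tubulin, and its feeder prefoldin read higher in MKO. On the control diet 12 of 14 values were positive and 2 negative, and on CR 14 of 14 were positive. The control-diet means of Pfdn1 (1726 in FLOX, 1719 in MKO) and Pfdn6 (1350 in FLOX, 1314 in MKO) were lower in MKO. Of 14 genes, 8 were higher and 0 lower in MKO on the control diet and 9 higher and 0 lower on CR, with medians of 0.19 and 0.15. After quantile normalization 6 were higher on CR. Among all genes 9.05% and 8.23% were higher. Tcp1 differed by 0.20 ± 0.03 SE (adjusted p = 6.34e-05), Cct4 by 0.21 ± 0.03 SE (adjusted p = 7.08e-05), Cct6a by 0.23 ± 0.04 SE (adjusted p = 7.98e-05) and Cct2 by 0.24 ± 0.04 SE (adjusted p = 9.15e-05) on the control diet. The MKO mice did not overlap the FLOX mice for any of these 4. Under CR 0 of the 14 passed in FLOX, where 12 of 14 values were positive, and 1 rose in MKO (Pfdn6, 0.22 ± 0.04 SE, adjusted p = 0.000497).

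Among 20 cytosolic co-chaperones of HSP70 and HSP90, 1 rose and 2 fell under CR in FLOX and 2 rose and 2 fell in MKO, against 10.0% and 15.1% of all genes in either direction. Between genotypes 3 were higher and 1 lower in MKO on the control diet and 2 higher and 2 lower on CR, against 19.3% and 17.3% of all genes. Fkbp5, an immunophilin induced by glucocorticoids, rose by 0.61 ± 0.15 SE (adjusted p = 0.0104) in FLOX and 0.90 ± 0.14 SE (adjusted p = 7.94e-05) in MKO, and its diet effects differed by 0.29 ± 0.21 SE (adjusted p = 0.999). Sugt1, a co-chaperone of HSP90, fell under CR, with log2 changes of -0.23 ± 0.05 SE (adjusted p = 0.00419) and -0.16 ± 0.05 SE (adjusted p = 0.0189), the second lost without MKO control animal 7 (adjusted p = 0.0508). It was higher in MKO by 0.27 ± 0.05 SE (adjusted p = 0.00037) and 0.33 ± 0.05 SE (adjusted p = 1.95e-05). St13 (HIP), which steadies HSP70, was higher in MKO by 0.31 ± 0.04 SE (adjusted p = 1.37e-05) and 0.31 ± 0.04 SE (adjusted p = 1.29e-05). Ppp5c, a phosphatase that binds HSP90, was lower in MKO on both diets, with differences of -0.20 ± 0.04 SE (adjusted p = 0.00213) and -0.13 ± 0.04 SE (adjusted p = 0.0327), the second lost with the slow fibre covariate (adjusted p = 0.0922) and without restricted FLOX animal 2 or 4 or restricted MKO animal 2, 3 or 5 (adjusted p 0.0557 to 0.0876). Cdc37, which brings kinases to HSP90, was lower on CR (-0.23 ± 0.06 SE, adjusted p = 0.0144). Unc45b, the myosin chaperone of muscle, fell under CR in MKO (-0.24 ± 0.05 SE, adjusted p = 0.00121).

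Of 20 genes of ER folding and the unfolded protein response, 0 rose and 1 fell under CR in FLOX (Pdia3, -0.25 ± 0.05 SE, adjusted p = 0.00328), and 0 rose and 2 fell in MKO. In MKO 5 were higher and 1 lower on each diet, against 19.3% and 17.3% of all genes in either direction. Among the higher ones were Xbp1 (0.33 ± 0.08 SE, adjusted p = 0.00618) and P4hb (0.23 ± 0.06 SE, adjusted p = 0.00498) on CR. The lower one was Ddit3 (CHOP), a factor of the unfolded protein response, with -0.26 ± 0.08 SE (adjusted p = 0.0199) on the control diet, a call lost without FLOX control animal 6 (adjusted p = 0.0761). Atf6 was higher in MKO by 0.30 and 0.21 on its brightest probe set (adjusted p = 0.00013 and 0.0048), but the mean of its probe sets was 0.00 and 0.05 (adjusted p = 0.988 and 0.506). The heat shock factor genes Hsf2 and Hsf4 did not pass in any of the 4 comparisons, and Hsf1 was not analysed here. Hsbp1, whose protein binds HSF1 and inhibits it, was higher in MKO on CR by 0.13 ± 0.03 SE (adjusted p = 0.00716), but the mean of its probe sets gave 0.08 (adjusted p = 0.147). Cryab, the muscle small heat shock protein alpha-B-crystallin, was higher in MKO on CR by 0.36 ± 0.11 SE (adjusted p = 0.026), lost without restricted FLOX animal 4, 5 or 6 or restricted MKO animal 1 or 4 (adjusted p 0.0525 to 0.074).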

How the data were processed

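Total RNA of TA/EDL muscle was hybridised to 1-colour Affymetrix arrays, 1 per mouse. The deposited table held 1 linear intensity per probe set, computed by the authors, for 45101 probe sets. Background correction, summary over probes and normalization are not stated in the sources used here, and no scan batch could be tested. The lowest value of each array was 56.6 to 62.8, which compresses the fold changes of dim genes. No detection calls were used, and the number of arrays limits the precision.

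Probe sets naming 1 gene (34945) were used, those with a mean under the 30th percentile (log2 7.47) left out, and the brightest per gene taken, leaving 14854 genes. For 9 of the 66 tested genes its suffix (_s_at or _x_at) marks probes that can bind several transcripts. From these, log2(intensity + 16) was computed and fitted with limma 3.58.1 in R 4.3.3 (lmFit, eBayes), 1 mean per group over all 26 arrays. The fit was also run on simulated data with independent noise and shifts larger than most changes reported here. That run does not test the calls. P-values were adjusted by Benjamini-Hochberg over the 14854 genes, and passing means an adjusted p under 0.05. Log2 changes are on the log2(intensity + 16) scale, which understates those of dim genes.

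The genes, lists and tests were chosen with earlier results of these data known. Genes named are the 20 of smallest p, the 5 of smallest p in each comparison, 14 chosen heat shock genes, those with conflicting probe sets and, after values were seen, the other genes that passed. From other lists up to 4 genes per comparison are named. Alternatives changed the pseudocount (1 or 64), filter, normalization, probe set, variance model, weights, arrays, covariate and replicate block.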

Additional observations from a re-analysis of the deposited data

Results flagged for a closer look

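Single mice that stood apart from their group were looked for in 168 groups of 6 or 7 mice (42 named genes in 4 groups each), by setting the gap between an extreme mouse and its nearest neighbour against the range of the group. Chance flags about 1 in 20 groups, and 8 were flagged. In CR FLOX mice, Dnaja1 was highest in mouse 2 at 1071, where the next was 921, and that mouse still lay below all control-diet FLOX mice. Dnajc17 was highest in mouse 1 at 371 against 340.3, and Dnajc11 in mouse 6 at 842 against 795. Mouse 4 of the same group was lowest for Dnajb6, at 1367 against 1569, and for Hspb7, at 4205 against 8179. In control-diet MKO mice, mouse 3 was highest for Dnajb2, at 1394 against 1157, and for Dnajc27, at 1557 against 1155. Hspa1b was highest in CR MKO mouse 1, at 554 against 379.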

How the results depend on the processing

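Of the 64 calls of heat shock and J-protein genes in the 4 comparisons, 38 passed under each alternative that gave a value and 26 were lost under at least 1. Averaging the probe sets of a gene lost 12 calls (Dnajb6 and Hspa4 in 2 comparisons each, Dnajb1, Hspa14 and Hspb8 under CR in MKO, Dnajb4, Dnajc1, Hspa13 and Hsph1 between genotypes on the control diet and Hspb11 on CR), fitting only the groups compared lost 12, and leaving out the 3 mice of highest slow fibre score, a choice made after seeing the data, lost 14. Quantile normalization lost 3 calls (Hspa12b between genotypes on the control diet, Hspb3 between genotypes on CR and Hspb8 under CR in MKO). Median centring lost 6 (Dnajc12 and Dnajc27 under CR in MKO, Dnajc30 and Hspa14 under CR in FLOX, Hspa12b between genotypes on the control diet and Hspb11 on CR). Counting a gene when any of its probe sets passed gave 19 genes under CR in FLOX (8 with a rise, 11 with a fall) in place of 11, 24 under CR in MKO in place of 18, 23 between genotypes on the control diet (12 and 11) in place of 14, and 28 on CR in place of 21. Over all 14854 genes that setting gave 1997 in place of 1490, 2917 in place of 2246, 3548 in place of 2865 and 3203 in place of 2567. In that count the value of smallest p had the opposite sign for Dnajc1 (-0.16 under CR in MKO and 0.16 between genotypes on the control diet), Dnajc11 (-0.20 and -0.17 under CR in FLOX and MKO) and Hspa4 (-0.28 and -0.40). Leaving out 1 mouse in turn gave 9 to 13 genes under CR in FLOX, 12 to 20 in MKO, 10 to 19 between genotypes on the control diet, 19 to 23 on CR and 0 to 0 for the interaction. The averages gave 21 to 25 for diet and 30 to 36 for genotype. With the number in the array title as a replicate block, 10, 17, 14 and 21 genes passed in the 4 comparisons, in the order above, 0 for the interaction, and 23 and 34 in the averages. The deviations of same-numbered mice of different groups had a median correlation of 0.08 (37 pairs, 16 of them over 0.1), against -0.01 for mice of different numbers (216 pairs, 63 over 0.1). Since not every same-numbered pair was over 0.1, the numbers were not taken as pairs. This rule cannot exclude pairing, because noise can bring a true pair under 0.1. The cause of these shifts was not tested. Signal over background could not be judged, since the lowest value of each array was near 60.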
